A study of Mus musculus with 2 samples.

Results

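Mast cells are tissue-resident leukocytes that lie around vessels, nerves and hair follicles of the skin and store ready-made mediators in granules. To describe their message in stretched skin, 9 genes were taken by name from the table of raw counts, which lists 24421 gene symbols. They encode the granule proteases Mcpt4, Cma1, Tpsb2, Tpsab1 and Cpa3, the histamine-forming enzyme Hdc, and the receptors Kit, Fcer1a and Mrgprb2. All 9 were in the table, and each exceeded 3 counts in 1 or both libraries, the minimum set here for a ratio.

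The RNA came from whole-layer back skin of wild type C57BL6/J mice, which the methods describe as 8-week-old females with hair follicles in telogen. There was 1 library of skin held at 33% strain for 5 days by a device glued to the back, and 1 library of non-stretched skin at day 5. According to the methods the strain was raised daily, and skin under the glued parts of the device was discarded. With a single library per condition, the differences below could not be checked against replicates and carry no p-value, and the number of animals behind each library is not stated. In a whole-layer sample, fewer cells of a type and less RNA per cell cannot be told apart.

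A resting connective tissue mast cell holds chymase, tryptase and carboxypeptidase bound to the heparin-rich matrix of its granules, together with histamine. It survives on stem cell factor, the ligand of Kit. It releases its granules when IgE bound to the high-affinity receptor, whose alpha chain is Fcer1a, is crosslinked, or when basic peptides engage Mrgprb2.

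Of the 9 genes, 8 were higher in stretched skin and Kit was lower. The 4 abundant protease genes were 1.29-fold to 1.76-fold higher, Hdc was 2.81-fold higher, and Kit was 0.646 times its level in control skin. The median log2 ratio of the 9 genes was 0.59. The ratio is that of CPM, which scales each count by the sum of all counts in its library. Over the 16255 genes that exceeded 3 counts in 1 or both libraries, the median was -0.12 and 38.5% were higher in stretched skin. Each ratio has an exact 95% interval that covers counting error only. This counting interval lay wholly above 0 for 7 of the 9 genes, against 18.1% of all genes, and wholly below 0 for Kit, against 33.5% of all genes. The remaining gene, Mrgprb2, had an interval that included 0.

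The control library totalled 14152379 counts and the stretched library 11648655, so that the minimum of 3 counts stands for 0.212 and 0.258 CPM respectively. The 9 genes held 3874 counts in the control library and 4556 in the stretched one, which is 0.0274% and 0.0391% of the libraries. None of the 9 overlaps an exon of another gene in GENCODE M21. At the read length of 76 bases, Mcpt4 shares 2.42% of its stretches with Cma2 and Cma1 shares 1.58% with Gm48934, and the other 7 share none. At 36 bases, the shortest read kept, the shares are 9.41% for Mcpt4 and 9.10% for Cma1 and below 1% for the other 7.

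**Figure D1:**
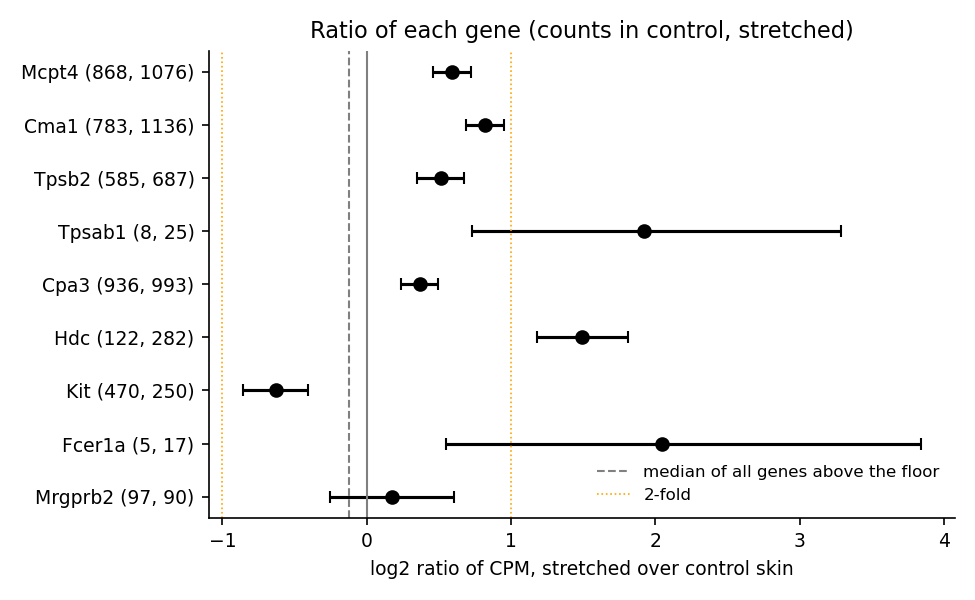
The log2 ratio of CPM in stretched over control skin is plotted for the 9 genes, with counts beside each name (control first) and bars for the exact 95% counting interval. The dashed line marks the median of all genes (-0.12) and the dotted lines mark a 2-fold difference. Kit lies to the left at -0.63, the 4 abundant proteases lie between 0.37 and 0.82, and Hdc lies at 1.49.

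Promoter sequences of the 5 members whose ratios the account turns on are shown here. They are from RefSeq on GRCm38.p6, the build of mm10, from 250 bases before to 50 bases after the annotated start. Of the 9 members, 7 had an entry, with 8 entries between them. For each gene only the entry with the lowest start coordinate was used and searched. Tpsb2 and Tpsab1 had none. Capitals mark a match on either strand to AGATAA or TGATAA, which are 2 of the strings that GATA factors bind, or to CATGTG, an E-box that MITF binds. TGATAA was added after the sequences were seen. The regions are chr14:56062261-56062560 (minus strand) for Mcpt4, chr14:55944626-55944925 (minus) for Cma1, chr3:20242132-20242431 (minus) for Cpa3, chr2:126618629-126618928 (minus) for Hdc and chr5:75574737-75575036 (plus) for Kit.
Mcpt4: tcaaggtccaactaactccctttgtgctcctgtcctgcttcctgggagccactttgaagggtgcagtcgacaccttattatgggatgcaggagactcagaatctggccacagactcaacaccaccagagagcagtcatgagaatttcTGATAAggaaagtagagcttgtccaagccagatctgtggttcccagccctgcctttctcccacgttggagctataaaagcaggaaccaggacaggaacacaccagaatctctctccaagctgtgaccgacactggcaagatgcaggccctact
Cma1: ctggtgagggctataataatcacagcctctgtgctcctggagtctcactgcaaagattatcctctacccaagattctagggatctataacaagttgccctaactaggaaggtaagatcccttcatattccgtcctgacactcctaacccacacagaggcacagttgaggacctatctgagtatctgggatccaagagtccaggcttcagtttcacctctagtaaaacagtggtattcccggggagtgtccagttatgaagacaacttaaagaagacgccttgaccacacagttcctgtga
Cpa3: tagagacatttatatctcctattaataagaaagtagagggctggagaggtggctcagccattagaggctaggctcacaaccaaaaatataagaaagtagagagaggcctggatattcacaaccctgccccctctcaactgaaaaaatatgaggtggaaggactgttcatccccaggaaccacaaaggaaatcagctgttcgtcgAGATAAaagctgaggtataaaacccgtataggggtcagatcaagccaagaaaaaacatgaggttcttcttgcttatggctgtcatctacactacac
Hdc: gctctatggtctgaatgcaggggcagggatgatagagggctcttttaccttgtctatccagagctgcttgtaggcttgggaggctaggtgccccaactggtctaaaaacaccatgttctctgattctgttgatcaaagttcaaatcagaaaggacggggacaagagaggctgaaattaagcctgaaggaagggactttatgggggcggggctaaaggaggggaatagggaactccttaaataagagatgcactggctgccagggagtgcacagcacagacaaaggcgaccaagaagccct
Kit: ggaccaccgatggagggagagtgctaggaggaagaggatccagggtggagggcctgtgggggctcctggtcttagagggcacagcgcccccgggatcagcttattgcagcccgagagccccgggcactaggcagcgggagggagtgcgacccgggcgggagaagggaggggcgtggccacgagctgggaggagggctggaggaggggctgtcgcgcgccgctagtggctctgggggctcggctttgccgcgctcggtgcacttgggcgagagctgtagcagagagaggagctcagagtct

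Of the 7 promoters, 2 held AGATAA, against 11.2% of the 32851 promoters in the table. With TGATAA, which was added for these sequences and supplies the matches of Mcpt4 and Mrgprb2, 4 held either motif, against 18.6%. Because TGATAA was picked after the sequences were seen, this comparison cannot show whether the members hold more matches than other promoters. The match began at position -103 from the start in Mcpt4, -46 in Cpa3, -92 in Fcer1a and -48 in Mrgprb2. CATGTG was in the promoter of Fcer1a alone, at position -208, and in 14.2% of all promoters. The RefSeq start of Hdc lies 621 bases inside the GENCODE gene, so the window of this gene may not be that of its outermost start. A match is a description of the letters and not a bound site, and other strings that GATA factors bind were not searched.

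Chymases are serine proteases that are stored at high abundance in skin mast cells. Mcpt4, the chymase of connective tissue mast cells in the mouse, lies on the minus strand of mm10 at chr14:56059629-56062313. It had 868 counts in the control library and 1076 in the stretched one, or 61.3 and 92.4 CPM. Its log2 ratio was 0.59 (interval 0.46 to 0.72). Cma1, the mast cell chymase gene of the same cluster at chr14:55941451-55944675, had 783 and 1136 counts, or 55.3 and 97.5 CPM. Its log2 ratio of 0.82 (interval 0.69 to 0.95) was the highest of the 4 abundant proteases. Both chymase genes were thus higher in stretched skin, and Cma1 by more than Mcpt4. The Mcpt4 count was 111% of the Cma1 count without stretch and 94.7% with stretch, a log2 ratio of ratios of -0.23 (interval -0.41 to -0.04). This comparison does not depend on how the libraries are scaled.

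Tryptases form tetramers on heparin and cleave after basic residues. Tpsb2, at chr17:25366305-25369098, had 585 counts in the control library and 687 in the stretched one, or 41.3 and 59.0 CPM (log2 ratio 0.51, interval 0.35 to 0.67). The neighbouring tryptase gene Tpsab1, at chr17:25343245-25345562, is known to be defective in C57BL/6 mice, and its part in the low count here was not tested. It had only 8 and 25 counts (log2 ratio 1.92, interval 0.73 to 3.28), and with 1 CPM added to both values the log2 ratio was 1.01. The tryptase message was therefore almost wholly that of Tpsb2 in both libraries, and the ratio of Tpsab1 is known only within a wide interval. The pair share no stretch of 76 bases and 4 stretches of 36 bases.

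Cpa3, the carboxypeptidase that trims peptides left by chymase, lies at chr3:20215620-20242181. It had 936 counts in the control library and 993 in the stretched one, or 66.1 and 85.2 CPM. Its log2 ratio of 0.37 (interval 0.24 to 0.50) was the lowest of the 5 proteases. Its promoter holds the AGATAA match shown above. The Cpa3 count was 120% of the Cma1 count without stretch and 87.4% with stretch, a log2 ratio of ratios of -0.45 (interval -0.64 to -0.26). Summed over the 5 proteases, 225 CPM in control skin compared with 336 CPM in stretched skin.

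Per length, the 4 abundant proteases stood far above the other 5 members in both libraries, and Tpsab1 was the lowest of all 9. FPKM (CPM per kilobase of exon) was 55.4 for Mcpt4, 50.8 for Cma1, 43.6 for Cpa3 and 25.9 for Tpsb2 in control skin. The intervals of Mcpt4 and Cma1 overlapped, and the other neighbours in this order did not overlap. In stretched skin Cma1 came first at 89.5 FPKM and Mcpt4 second at 83.4, again with overlapping intervals, followed by Cpa3 at 56.2 and Tpsb2 at 37.0. Among the 15792 genes above 3 counts in control skin, Mcpt4 ranked 781 by FPKM, and among the 15627 such genes in stretched skin it ranked 472. Cma1 made up 28.9% of the protease FPKM without stretch and 33.5% with stretch, while Cpa3 made up 24.8% and 21.04%. Mcpt4 made up 31.5% and 31.2%.

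The other members were low. In control skin the order was Kit at 3.73 FPKM, Mrgprb2 at 3.30, Hdc at 1.35, Fcer1a at 0.354 and Tpsab1 at 0.270. The intervals overlapped between Kit and Mrgprb2 and between Fcer1a and Tpsab1. In stretched skin Hdc came first in this group at 3.79 FPKM, with Mrgprb2 at 3.72, Kit at 2.41, Fcer1a at 1.46 and Tpsab1 at 1.02. The intervals of Hdc and Mrgprb2 overlapped there, as did those of Kit and Fcer1a and of Fcer1a and Tpsab1. The exon length of Tpsab1 includes transcripts with retained introns, which lowers its FPKM.

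**Figure D2:**
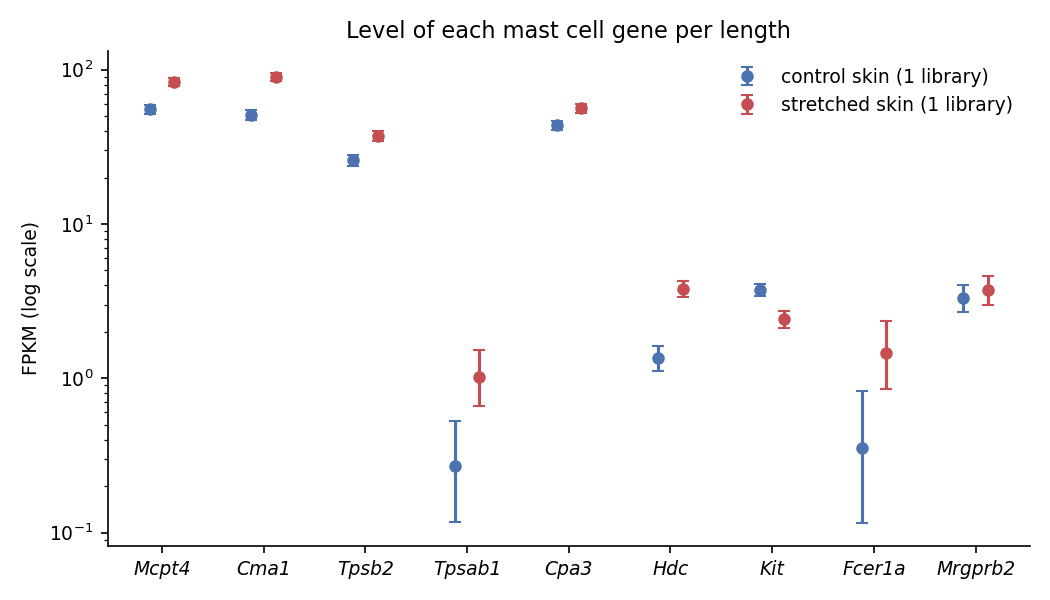
The level of each gene is plotted as FPKM on a log axis, in control skin (blue) and stretched skin (red), with bars for the exact 95% Poisson interval of its count. The abundant proteases lie between 25.9 and 89.5 FPKM, the other 5 genes lie below 4, and Kit is the only gene whose stretched point lies below its control point.

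Hdc, histidine decarboxylase, makes histamine from histidine in a single step and lies at chr2:126593667-126619299. It had 122 counts in the control library and 282 in the stretched one, or 8.62 and 24.2 CPM. The log2 ratio was 1.49 (interval 1.18 to 1.81), the highest among members with at least 100 counts in 1 library. Hdc was also higher relative to Cma1, from 15.6% to 24.8% of its count, a log2 ratio of ratios of 0.67 (interval 0.33 to 1.02). Of the 8 members set against Cma1, Hdc alone had an interval of this ratio wholly above 0, against 3.17% of all genes. Intervals wholly below 0 were found for 5 members, against 78.2% of all genes, so that being below Cma1 was the common case. Neutrophils and basophils are known to express Hdc as well. Of the 8 neutrophil markers, 7 were analysed here and 6 had intervals above 0, with a summed level of 15.0 CPM without stretch and 71.6 CPM with stretch. Among them S100a8 had 57 and 283 counts, Csf3r 50 and 235, and Retnlg 1 and 31. The exception was Camp, with 6 and 3 counts and an interval that included 0. Of the 5 basophil markers, 3 were at the floor, with 0 and 1 counts for Mcpt8, 1 and 2 for Prss34, and 0 and 1 for Il4. The other 2 were Il3ra, with 103 and 196 counts (1.21, interval 0.86 to 1.57), and Cd200r3, with 19 and 15 (-0.06, interval -1.14 to 0.99). The part of neutrophils and basophils in the level of Hdc was not tested.

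Whether any member counted as upregulated here depended on a value added to FPKM. The methods keep genes whose product of FPKM over both libraries is above 10 and call a fold of at least 2 or at most 0.5. With nothing added, as the methods state these limits, 5 of the 9 members passed the filter and no member was called in either direction. Of the 9675 genes that passed, 2.95% were called upregulated and 2.85% downregulated. The methods took FPKM from Cufflinks, while FPKM here used the union of exons. The product depends on the length used, and the rule with nothing added was not run with another length. The product was 5.11 for Hdc and 8.98 for Kit, both under the limit. In the version used here, which adds 1 to each FPKM and is called the fold rule below, 7 of the 9 members passed and Hdc alone was called upregulated, against 2.61% of genes, and none downregulated, against 2.43%. Hdc then lay just inside both limits, with a product of 11.3 and a fold of 2.04, and Cma1 lay just outside the fold limit at 1.75.

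Kit, the receptor tyrosine kinase for stem cell factor, lies at chr5:75574916-75656722. It had 470 counts in the control library and 250 in the stretched one, or 33.2 and 21.5 CPM. Its log2 ratio of -0.63 (interval -0.86 to -0.41) was the only negative one among the members. The Kit count was 60.0% of the Cma1 count without stretch and 22.0% with stretch, a log2 ratio of ratios of -1.45 (interval -1.71 to -1.18). Melanocytes also depend on Kit and express it. Of the 8 melanocyte markers, all were measured and 7 had intervals below 0, with a summed level of 417 CPM without stretch and 180 CPM with stretch. Dct, which makes eumelanin precursors, had 2087 and 837 counts, and Tyr, the rate-limiting enzyme of melanin synthesis, had 389 and 97. The exception was Sox10, a transcription factor of melanocytes and glia named after its values were seen, with 166 and 163 counts. The part of melanocytes in the lower Kit count was not tested.

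Kitl, which encodes stem cell factor, was lower together with its receptor, with 1055 counts in the control library and 560 in the stretched one (log2 ratio -0.63, interval -0.78 to -0.48). Mitf, a transcription factor shared by mast cells and melanocytes, had 724 and 397 counts (-0.59, interval -0.77 to -0.41).

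Fcer1a, at chr1:173221284-173227214, had 5 counts in the control library and 17 in the stretched one (log2 ratio 2.05, interval 0.55 to 3.84). Its interval lay above 0, but its lower bound leaves a difference as small as 1.46-fold, and with 1 CPM added to both values the log2 ratio was 0.86. Basophils carry the same receptor, and the summed level of all 5 basophil markers was 8.69 CPM without stretch and 18.5 CPM with stretch. Of this sum Il3ra held 7.28 and 16.8 CPM, while Cd200r3 held 1.34 and 1.29 CPM. Their part in the Fcer1a count was not tested. Ms4a2, the beta chain of the same receptor, had 39 and 34 counts, and its log2 ratio of 0.08 had an interval that included 0 (-0.62 to 0.78). Mrgprb2, at chr7:48550965-48558086, had 97 and 90 counts, or 6.85 and 7.73 CPM, and its log2 ratio of 0.17 (interval -0.26 to 0.60) could not be told from 0 at this depth. Relative to Cma1 it was lower, from 12.4% to 7.92% (-0.64, interval -1.10 to -0.19). The related mast cell receptor Mrgprb1 had 153 and 180 counts (0.52, interval 0.20 to 0.84). The receptor genes thus did not share 1 direction, with values from -0.63 for Kit to 2.05 for Fcer1a.

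Ptprc, which encodes the pan-leukocyte antigen CD45, had 371 counts in the control library and 583 in the stretched one (log2 ratio 0.93, interval 0.74 to 1.12). Set against it, the Cma1 count was 211% without stretch and 195% with stretch, with an interval of the ratio of ratios that included 0 (-0.35 to 0.12). Mcpt4 (-0.34), Tpsb2 (-0.42), Cpa3 (-0.57), Kit (-1.56) and Mrgprb2 (-0.76) were lower relative to Ptprc, with intervals wholly below 0, as for 80.3% of all genes. Hdc was again the only member with an interval above 0 (0.56, interval 0.19 to 0.93), against 2.45% of all genes.

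**Figure D3:**
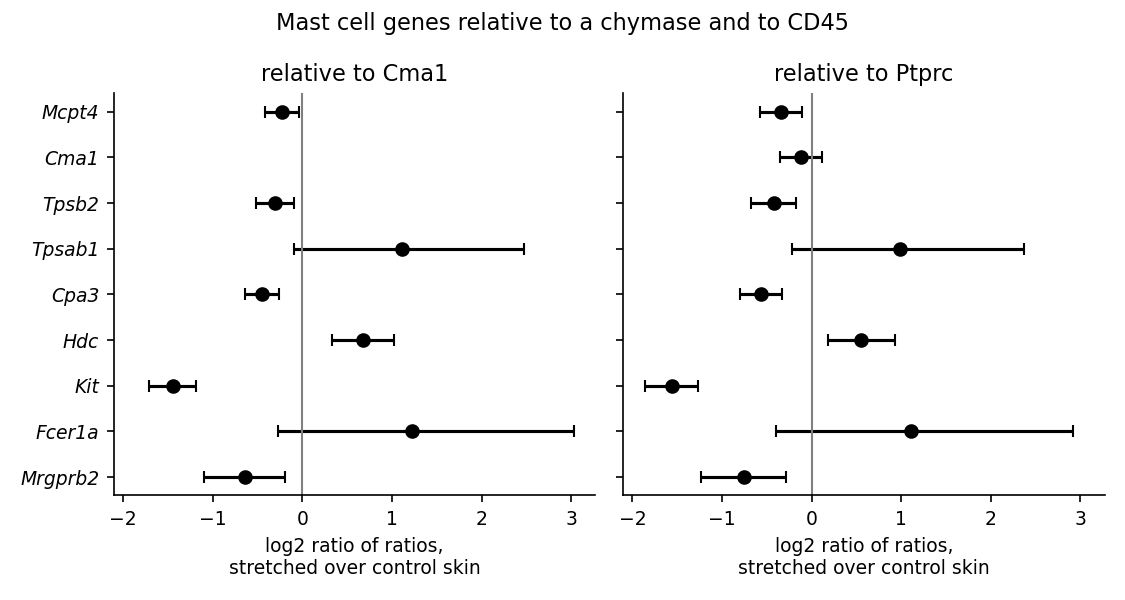
Each point is the log2 of a gene's ratio to Cma1 (left) or Ptprc (right) in stretched skin over the same ratio in control skin, with bars for the exact conditional 95% interval. Hdc lies to the right of 0 in both panels (0.67 and 0.56) and Kit farthest to the left (-1.45 and -1.56), while the bars of Tpsab1 and Fcer1a cross 0.

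The rest of the mast cell program was read from lists of genes, whose counts of intervals stand against 18.1% above 0 and 33.5% below 0 among all genes. The 14 mast cell-enriched genes outside the members had a median log2 ratio of 0.54, close to that of the 9 members, against -0.12 for all genes. Of these, 7 had intervals above 0, 1 below and 6 that included 0. Those 6, listed after their values were seen, were Ms4a2 (0.08), Slc18a2 (-0.22), Adora3 (0.56), Maob (-0.04), Cyp11a1 (0.11) and Ctsg (-0.04). Serglycin (Srgn), the core protein that holds proteases and histamine in the granule, had 231 counts in the control library and 378 in the stretched one (0.99, interval 0.75 to 1.23). Gata2, a transcription factor that mast cells require, had 89 and 115 counts (0.65, interval 0.24 to 1.07), and Il1rl1, the receptor of interleukin 33, had 141 and 217 (0.90, interval 0.59 to 1.22). Tph1, which starts serotonin synthesis, had 8 and 31 counts (2.24, interval 1.08 to 3.57). The exception below 0 was Rab27b, a GTPase of granule secretion named after its values were seen, with 458 and 307 counts (-0.30, interval -0.51 to -0.08). Serglycin and Il1rl1 are also expressed by other leukocytes.

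The 16 genes of the IgE receptor and its signalling had a median of 0.67, with 11 intervals above 0, 2 below and 3 that included 0. The 2 below 0, named after their values were seen, were Plcg1 with 1291 and 809 counts and Stim1 with 2444 and 1862. By the fold rule 3 were upregulated, namely Fcer1g, Lcp2 and Vav1, and with nothing added to FPKM 3 were as well, namely Fcer1g, Lyn and Inpp5d. Lyn shares 14.3% of its stretches of 76 bases with other genes, so its count is uncertain. Fcer1g, the gamma chain that Fc receptors of several myeloid cells share, had 364 counts in the control library and 898 in the stretched one (1.58, interval 1.41 to 1.76), Lcp2 had 89 and 219 (1.58), and Vav1 had 101 and 220 (1.40). All 10 macrophage markers were also higher with intervals above 0, from a sum of 916 CPM to 2194 CPM, and 8 were upregulated by the fold rule. Adgre1, which encodes F4/80, had 472 and 1148 counts. Macrophages express Fcer1g, Lcp2 and Vav1, and their part in these values was not tested. Ms4a2 and Fcer1a, the chains that are largely restricted to mast cells and basophils, had 39 counts or fewer.

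No difference was detectable at this depth in the genes that load, inactivate or sense histamine. Of these 7 genes, 4 were measured, with a median of -0.39 and intervals that all included 0. Slc18a2, which loads histamine into granules, had 92 and 65 counts (-0.22, interval -0.70 to 0.25), and Hnmt, which inactivates histamine, had 59 and 33 (-0.56, interval -1.22 to 0.08). The 13 genes of granule matrix, storage and release had a median of 0.12, with 4 intervals above 0, 3 below (Rab27b, Stxbp2 and Stx3) and 6 that included 0, which for those below 0 is a smaller share than among all genes. Hexa, a lysosomal enzyme also released with granules, had 1126 and 1763 counts (0.93, interval 0.82 to 1.04).

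Of the 11 growth and activating factors and receptors, 8 were measured, with a median of 1.06 and 6 intervals above 0. Il33, an alarmin that activates mast cells, had 338 counts in the control library and 690 in the stretched one (log2 ratio 1.31). Csf2rb, the shared beta chain of interleukin 3, interleukin 5 and GM-CSF receptors, which shares stretches of 76 bases with Csf2rb2, had 331 and 711 (1.38, interval 1.19 to 1.58), and both were upregulated by the fold rule. Kitl was the only gene of this list with an interval below 0. Il3 and Il9 had 0 counts in both libraries, which allows up to 0.212 CPM without stretch and 0.258 CPM with stretch.

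Of the 8 transcription factor genes, 4 had intervals above 0 and 1 below, with a median of 0.49. Spi1, which is also a macrophage factor, had 180 and 393 counts (1.41, interval 1.15 to 1.67), and Mitf was the gene below 0. The 11 eicosanoid genes had a median of 0.34, with 3 intervals above 0, 1 below (Pla2g4a) and 7 that included 0, and the share above 0 is not far from that of all genes. Hpgds, the prostaglandin D2 synthase of mast cells, had 389 and 491 counts (0.62, interval 0.42 to 0.81), and Alox5ap, which serves leukotriene synthesis, had 312 and 601 (1.23, interval 1.03 to 1.43).

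The proteases of mucosal mast cells and basophils were almost absent from both libraries. Of the 8 other protease genes, 6 had 3 counts or fewer in both libraries, among them Mcpt1 with 1 and 1 and Mcpt2 with 0 and 0. Ctsg had 5 and 4 counts and Tpsg1 24 and 16, with intervals that included 0.

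**Figure D4:**
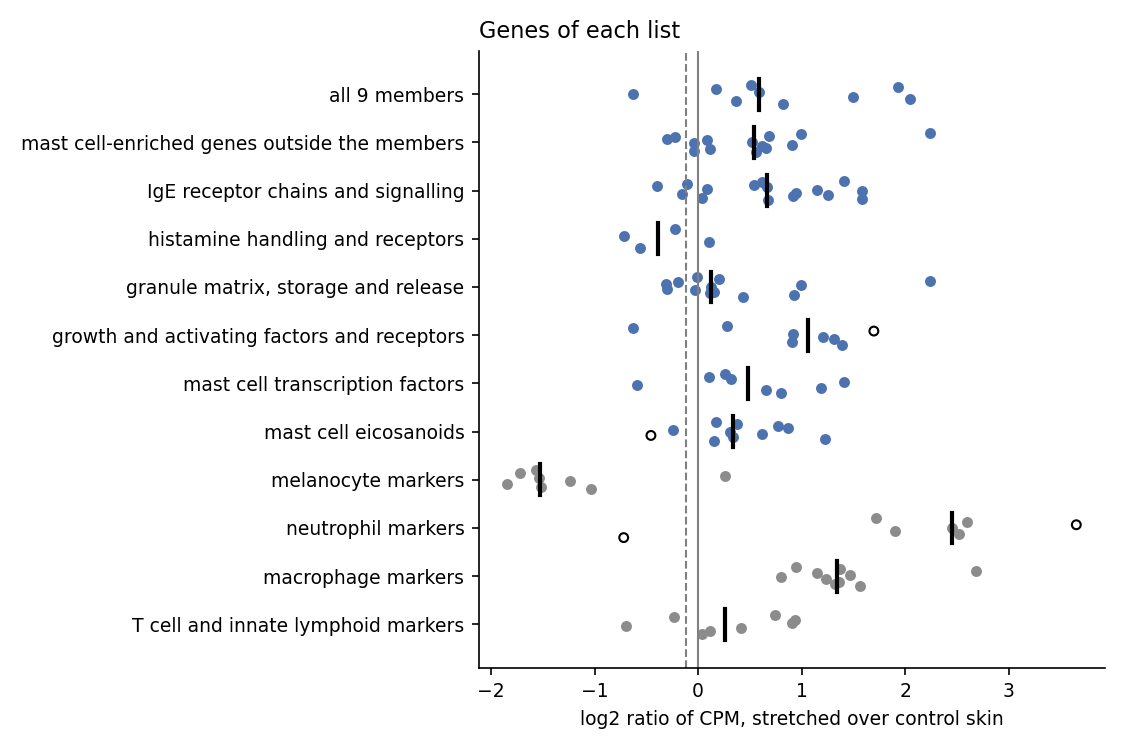
Each point is the log2 ratio of CPM in stretched over control skin for 1 gene above 3 counts in at least 1 library, by list, with mast cell lists in blue, markers of other cells in grey and open circles for genes with 3 counts or fewer in 1 library. Black bars are list medians, from -1.53 for melanocyte markers to 2.45 for neutrophil markers, with 0.59 for the 9 members, and the dashed line is the median of all genes (-0.12).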

How the data were processed

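The authors deposited counts of reads per gene symbol, not normalized, for 1 library per condition. Per the labels and the methods, single-end reads passed a quality filter (FASTX-Toolkit), and TopHat2 placed them on the mm10 genome. The counting program, its annotation and its use of strand and shared reads are not given in the sources used here. CPM used each library's own total, and the exact 95% interval (Clopper-Pearson) of a ratio came from the share of a gene's counts that fell in stretched skin. Counts of 3 or fewer were set to 3. FPKM used the union of exons in GENCODE M21, found for 24045 of the 24421 symbols. Ratios to Cma1 and Ptprc carry exact conditional intervals. The fold rule took its thresholds from the methods but added 1 to each FPKM, which the methods do not. It also used the FPKM computed here, where the methods used that of Cufflinks. Intervals cover counting error only, since reads carry no molecular identifiers. No test across replicates was possible.

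The members and lists were chosen with earlier results of these data known. Lists covered proteases, Mrgpr receptors, IgE receptor signalling, histamine, granules, growth factors, transcription factors, eicosanoids, mast cell-enriched genes, and markers of melanocytes, basophils, eosinophils, neutrophils, macrophages, dendritic cells and T cells. From each list at most 4 genes were named, the first and those with the largest ratios among genes with at least 20 counts, together with genes at 3 counts or fewer. Exceptions within a list were named after their values were seen. Alternatives were other scalings (edgeR 4.0.16, DESeq2 1.42.0), pseudocounts, filters and leaving out 1 member. The length of the longest transcript and the rule with nothing added to FPKM were chosen after seeing the data. Code was tested on simulated data. Python 3.11.15, scipy 1.17.1 and R 4.3.3 were used. Protein sequences were not used here.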

Additional observations from a re-analysis of the deposited data

How the results depend on the processing

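Other scalings add 1 shift to every log2 ratio, 0.10 for TMM, 0.11 for the median of ratios, 0.10 for the upper quartile and 0.06 once the 50 most counted genes were dropped from the totals. Under these 4 scalings 7 members kept intervals above 0 and 1 below. All 45 alternative values of single members stayed within their counting intervals and kept their sign, but those intervals are wide for genes with few counts, and adding 1 CPM took Fcer1a from 2.05 to 0.86 and Tpsab1 from 1.92 to 1.01. The median of the members ranged from 0.55 to 0.70 when each was left out in turn, and no member shared 10% or more of its stretches. The number of members upregulated by the fold rule was 1 as reported, 0 with a pseudocount of 0.1 FPKM, 0 with no value added to FPKM, 0 with a product of FPKM above 100, and 2 with a fold of 1.5, where Cma1 joined Hdc. The first 3 settings remove Hdc by the filter. No member was downregulated under any alternative run for the fold rule. Of 102 values of other lists, 3 moved past their counting intervals, all of the macrophage markers under scaling. The median of the other Mrgpr receptors turned from -0.13 to 0.48 with at least 20 counts over both libraries, since that removes its genes with few counts, and no other list median changed sign. No paired analysis was possible because each condition has 1 library, which also means that leaving out a library was not an option. Depth limits Fcer1a and Tpsab1 most, and 1 library per condition limits every comparison.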

Other observations

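The 6 eosinophil markers were low, with a summed level of 1.55 CPM without stretch and 3.61 CPM with stretch. Of these, 4 were measured and all 4 had intervals that included 0, and Epx had 0 counts in both libraries. The 7 dendritic and Langerhans cell markers had a median log2 ratio of 0.46, with 3 intervals above 0 and 4 that included 0. Among the 3 was Itgax, with 47 and 152 counts (1.97, interval 1.49 to 2.48), which macrophages also express. Of the 9 T cell and innate lymphoid markers, 8 were measured, with a median of 0.26, 2 intervals above 0, 2 below and 4 that included 0. The 2 below were Gata3 with 2055 and 1042 counts and Rora with 1649 and 1155. Which cells of the whole-layer skin gave the Gata3 and Rora counts was not tested. Cd3e had 27 and 24 counts (0.11, interval -0.75 to 0.96).

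Of the 17 other Mrgpr receptor genes, 7 were measured, and their median log2 ratio has no settled sign. It was -0.13 over the 7, which is the value of Mrgprb8 with 4 and 3 counts, and 0.48 over those with at least 20 counts in both libraries together. Mrgprf, which fibroblasts and smooth muscle express, had 283 and 458 counts (0.98, interval 0.76 to 1.19). Mrgprg had 21 counts without stretch and 1 with stretch, with an interval wholly below 0 (upper bound -1.48). Mrgprb3 had 69 and 39 counts (-0.54, interval -1.15 to 0.04). Of the remaining genes, 10 had 3 counts or fewer in both libraries, including Mrgpra3, a receptor of itch neurons, with 0 in both.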
